A study of Homo sapiens with 14 samples.

Results

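The expression changes described here are those that accompany silencing of RELB in MiaPaCa2, an established human pancreatic cancer cell line. They were read from 4 of the 14 Affymetrix whole-transcript arrays of the study, chosen by their labels and not by any measured value. The first group is siRelB, cells transfected with a small interfering RNA (siRNA) against RELB, with 1 array after 9 h in Earle's balanced salt solution (EBSS) and 1 array after 9 h in a mock medium. The second group is siCtrl, cells given a scrambled siRNA (titled sic), with 1 array in the same EBSS and 1 in the same mock medium at 9 h. All 4 cultures received the INTERFERin transfection reagent. EBSS is a salt solution used to starve cells, and the labels describe it as free of glucose, amino acids and growth factors, although the usual formula holds glucose. What the mock medium contained is not given in the sources used here. According to the design text, the study asks whether RELB and its relative RELA switch on different genes in starved cells, among them a survival gene that needs RELB. Each combination of siRNA and medium was measured on 1 array, and the labels do not say whether the arrays came from separate cultures. The p-values therefore do not measure the spread between repeated cultures. The spread behind them is how far the 14 arrays departed from additive effects of set, siRNA, medium and time. The siRelB difference is the mean of the EBSS pair and the mock pair, in log2 units ± SE, from a limma fit to all 14 arrays that shares 1 estimate of the spread. A gene was called when its Benjamini-Hochberg adjusted p over all 11026 tested genes was under 0.05.

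RELB is a DNA-binding subunit of the transcription factor NF-kB. In the alternative pathway, receptors such as the lymphotoxin beta receptor, CD40 and Fn14 stabilize the kinase NIK (MAP3K14), which activates IKK alpha (CHUK). IKK alpha marks the NFKB2 precursor for trimming to p52, and p52 then enters the nucleus together with RELB. In the canonical pathway, TNF and interleukin 1 receptors act through IKK beta to remove the IkB inhibitors and release RELA dimers, and RELB and NFKB2 are themselves canonical target genes. In pancreatic cancer cells NF-kB is known for its part in chemokine production and in survival under stress.

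The labels list 2 siRNAs against RELB, without saying which was used for these arrays. They are shown because the second overlaps the first, so that they do not address separate stretches of the transcript. The shared 15 bases stand in capitals, as the labels write the strand, without the dTdT ends.
siRelB: GGAUUUGCCGAAUUAacaa
siRelB#2: cugcGGAUUUGCCGAAUUAuu
The first has 19 bases and the second 21.

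The deposited values had been normalized by quantiles, which brings arrays close in overall signal. Close medians therefore do not show that the RNA or the cultures were matched. The array medians of the NF-kB set (6 arrays, of which 2 carried an siRNA against RELA) ranged over 5.76 to 5.84 (log2), and the median siRelB difference of all tested genes was 0.003. Across genes the siRelB and siCtrl arrays correlated at 0.972 in EBSS and 0.970 in mock. The labelled cell line was checked against markers. KRT8, KRT18, KRT19, VIM and ZEB1, which MiaPaCa2 cells express, were above the filter on dim genes, a level of 5.80. CDH1, which they express weakly, was dim at 4.79 and 4.54 in siRelB cells and 4.83 and 4.69 in siCtrl cells (EBSS, mock). CDKN2A, which is deleted in this line, had a cluster just above the filter, at 6.25 and 6.11 in siRelB cells and 6.55 and 6.01 in siCtrl cells. Of the markers of other cells, 3 of 8 fibroblast, 3 of 7 leukocyte, 1 of 6 endothelial and 1 of 4 acinar genes with a cluster were above the filter, and none of them changed with siRelB by limma. The mean level of the fibroblast list was 5.21 and 5.30 in siRelB cells and 5.21 and 5.25 in siCtrl cells, and that of the leukocyte list 5.57 and 5.41 in siRelB cells and 5.73 and 5.54 in siCtrl cells. The defining markers DCN, PTPRC, PECAM1 and PRSS1 lay between 2.65 and 4.53 on these 4 arrays, all under the filter.

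RELB itself was lower with its siRNA. Its level was 6.73 in EBSS and 6.16 in mock in siRelB cells, against 8.41 and 7.11 in siCtrl cells. Both siRelB arrays lay below both siCtrl arrays. The difference was -1.32 ± 0.17 (n = 2 pairs, limma adjusted p = 3.62e-05), 2.49-fold lower. The EBSS pair gave -1.68 and the mock pair -0.95. The level in siRelB cells in EBSS, 6.73, was below that of siCtrl cells in mock, 7.11. The call was kept when any 1 array of the NF-kB set was left out (adjusted p of up to 0.00585), and RELB was also lower with siRelB than with siRelA (adjusted p = 0.00125).

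Of the other NF-kB subunits, NFKB2 fell and RELA did not differ detectably. NFKB2, which encodes the precursor of the p52 partner of RELB, lay at 8.41 and 7.23 in siRelB cells (EBSS, mock), against 8.79 and 7.70 in siCtrl cells. It was lower within each medium, by -0.43 ± 0.13 (n = 2 pairs, limma adjusted p = 0.0271), while the groups overlapped across media. RELA lay at 9.19 and 8.70 in siRelB cells, against 9.19 and 8.67 in siCtrl cells, a difference of 0.02 ± 0.13 (limma adjusted p = 0.958). REL, a canonical subunit best known from lymphocytes, differed by -0.38 ± 0.14 (adjusted p = 0.0783) and NFKB1, the p50 precursor gene, by -0.26 ± 0.15 (adjusted p = 0.261), neither past the limma threshold. NUPR1, the stress-induced chromatin protein that the study as a whole is about, fell by 0.43 ± 0.14 (limma adjusted p = 0.0442), with 6.29 and 5.97 in siRelB cells and 6.84 and 6.30 in siCtrl cells. IER3, a stress-inducible survival gene that the protocols name as a further siRNA target, fell by 0.50 ± 0.14 (limma adjusted p = 0.0209). Its level was 7.79 and 7.35 in siRelB cells, against 8.57 and 7.56 in siCtrl cells, and the gap of -0.78 in EBSS was wider than the -0.21 in mock. The gap between media was -0.57 ± 0.27, not past the threshold of its own limma test, and the IER3 difference did not part from that of siRelA (-0.17, adjusted p of the contrast 0.168). Leaving out any 1 of the 4 arrays leaves 1 complete pair. The siRelA arrays help to set the medium difference in such a fit, so its estimate is not that of the single pair. Then the calls of NFKB2 and NUPR1 were lost without each of the 4 in turn (adjusted p of up to 0.229 and 0.318), and NUPR1 also without either siRelA array and with no filter on dim genes (0.0807). The IER3 call was lost without the siRelB EBSS or the siCtrl EBSS array (adjusted p = 0.395 and 0.423).

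**Figure D1:**
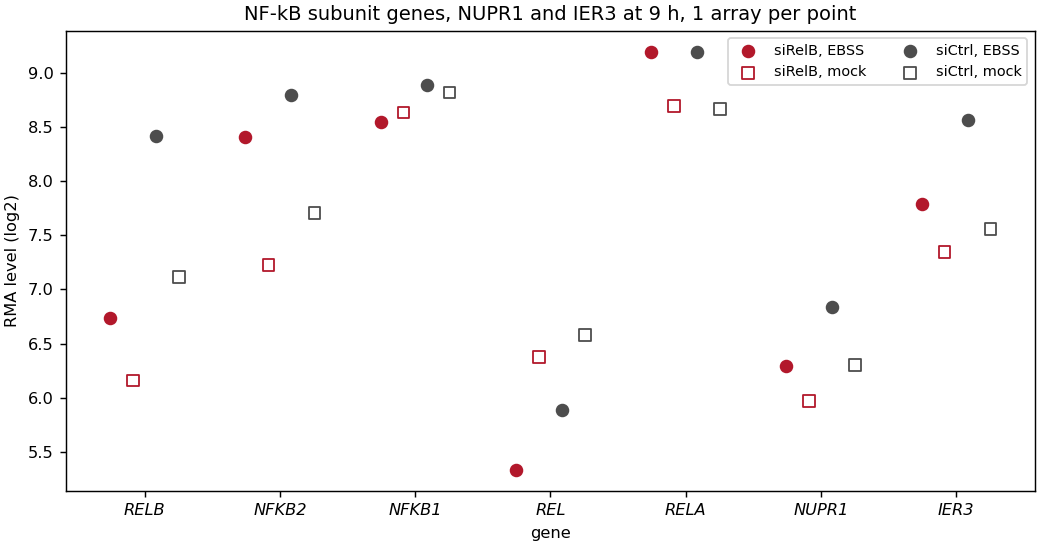
RMA level (log2) of 7 genes on each of the 4 arrays at 9 h, siRelB in red and siCtrl in grey, with filled circles for EBSS and open squares for mock, 1 array per point. RELB is the gene whose siRelB points (6.73 and 6.16) both lie below its siCtrl points (8.41 and 7.11) by the widest margin, and the RELA points of the groups nearly coincide.

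Of 11026 tested genes, 836 rose with siRelB (7.58%) and 943 fell (8.55%), 16.1% in all. Every called gene had the same sign in the EBSS pair and in the mock pair. Of the called genes, 270 rose and 425 fell by at least 1.5-fold, and 22 rose and 63 fell by at least 2-fold. The 2 siRelB arrays lay wholly above or wholly below the 2 siCtrl arrays for 713 of the genes that rose and 460 of those that fell, and for 29.3% of all tested genes. The pairs share no array. Across all tested genes their differences correlated at 0.675 (Pearson) and 0.590 (Spearman), a description only, since genes are not independent, and 69.4% of genes had the same sign. The median absolute difference was 0.183 in EBSS and 0.190 in mock. Without the medium term, which pairs the arrays, 63 genes were called, and 0 of the canonical NF-kB targets and of the G2/M genes below. Without the siRelB mock, siRelB EBSS, siCtrl mock or siCtrl EBSS array, 761, 778, 841 and 847 genes were called. The balance of directions moved with the siCtrl mock array, without which 293 rose and 548 fell.

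**Figure D2:**
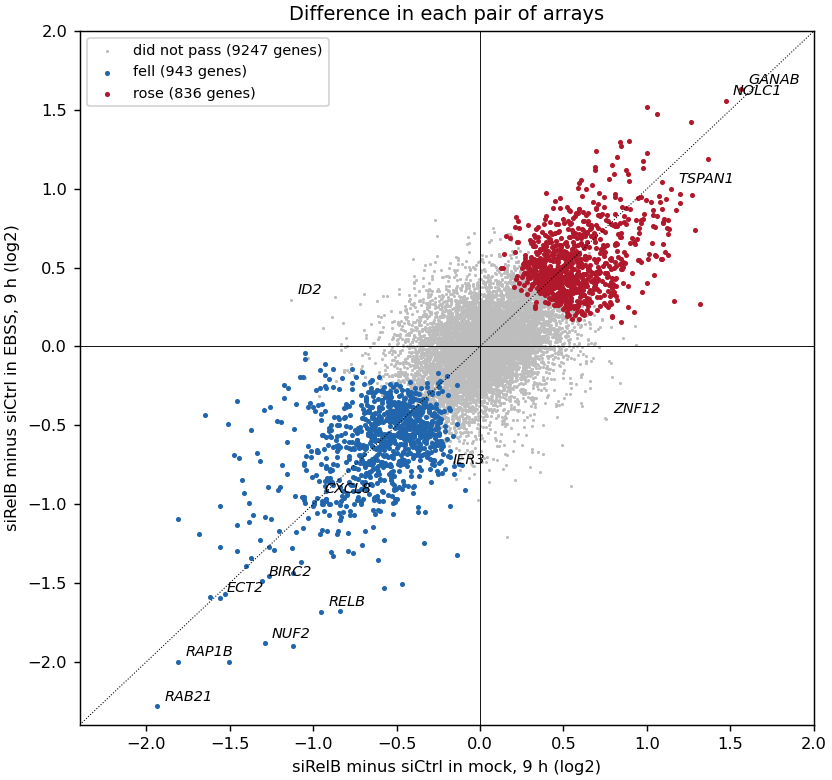
Difference between siRelB and siCtrl (log2) in EBSS, vertical, against that in mock, horizontal, for the 11026 tested genes, with the 836 that rose in red, the 943 that fell in blue and the rest in grey. The dotted line marks equal differences. RAB21 and RAP1B lie farthest down and GANAB and NOLC1 farthest up, all near the line, while ID2 and ZNF12 lie on opposite sides of 0 in the pairs.

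Among components of the alternative pathway, 4 of 12 tested genes fell (33.3%, against 8.55% of all tested genes) and 0 rose, and 3 more were too dim to test. With siRelA, measured against the same siCtrl arrays, 3 of the 12 fell and 3 rose (11.4% and 10.1% of all tested genes). BIRC2 encodes cIAP1, the ubiquitin ligase that keeps NIK low in resting cells. Its level was 7.45 and 7.98 in siRelB cells (EBSS, mock), against 8.94 and 9.28 in siCtrl cells, so both siRelB arrays lay below both siCtrl arrays. The difference of -1.40 ± 0.13 (n = 2 pairs, limma adjusted p = 8.44e-07) was one of the 15 largest falls of all tested genes. It was larger than that with siRelA (-0.92, adjusted p of the contrast 0.023). CHUK, the IKK alpha kinase that receives the signal of NIK, lay at 6.21 and 7.73 in siRelB cells, against 7.09 and 8.25 in siCtrl cells, and fell by 0.70 ± 0.14 (limma adjusted p = 0.00169). TNFRSF12A, the receptor Fn14, lay at 9.83 and 9.06 in siRelB cells, against 10.38 and 9.62 in siCtrl cells (-0.56 ± 0.12, limma adjusted p = 0.0038). MAP3K14, NIK itself, fell by 0.42 ± 0.13 (limma adjusted p = 0.0363). TRAF3, LTBR, CD40, TNFRSF1B, TNFRSF13C, LTB, TNFSF14 and NFKBID did not pass the threshold, and the median of the list was -0.07. With 1 of the 4 arrays left out, 1 to 3 of the list fell. BIRC2 was called whichever array was left out (adjusted p of up to 0.0002). The CHUK call was lost without the siCtrl EBSS or siRelB EBSS array, the TNFRSF12A call without the siCtrl mock or siRelB EBSS array, and that of MAP3K14 without any 1 of the 4 (adjusted p of up to 0.0918, 0.0626 and 0.4). The last was also lost with no filter on dim genes (0.0581).

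Among components of the canonical pathway, 3 of 14 tested genes rose (21.4%, against 7.58% of all tested genes) and 1 fell (7.14%, against 8.55%), and the median of the list was 0.19. With 1 of the 4 arrays left out, 1 or 2 rose. IL1R1, the signalling receptor of interleukin 1, lay at 7.31 and 9.13 in siRelB cells, against 6.50 and 8.15 in siCtrl cells. It rose within each medium, by 0.89 ± 0.13 (n = 2 pairs, limma adjusted p = 7.95e-05), while the difference between media was wider than that between siRNAs. TRADD, an adaptor of TNF receptor 1, rose by 0.57 ± 0.13 (limma adjusted p = 0.00409), with 8.75 and 8.69 in siRelB cells, against 8.26 and 8.04 in siCtrl cells. IKBKB, the IKK beta kinase, rose by 0.36 ± 0.12 at the edge of the threshold (limma adjusted p = 0.0498). TAB3, an adaptor of the kinase TAK1, fell by 0.61 ± 0.12 (limma adjusted p = 0.00169), with 5.87 and 6.62 in siRelB cells, against 6.50 and 7.21 in siCtrl cells. With siRelA, measured against the same siCtrl arrays, 3 of the 14 rose (against 10.1% of all tested genes) and 0 fell. TRADD was higher and TAB3 lower with siRelB than with siRelA (adjusted p of the contrasts 0.0208 and 0.00382). The calls of IL1R1 and TAB3 were kept without any 1 array. That of TRADD was lost without the siCtrl EBSS, siCtrl mock or siRelB mock array (adjusted p of up to 0.137), and that of IKBKB in every fit that lacked an array of the set (up to 0.386), with no filter on dim genes (0.0783) and with no intensity trend (0.0504).

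Inhibitors and feedback genes were divided, with 2 of 14 tested genes higher (14.3%, against 7.58% of all tested genes) and 4 lower (28.6%, against 8.55%). NFKBIA, the IkB alpha gene and a classical feedback target, lay at 10.12 and 10.09 in siRelB cells, against 10.59 and 10.52 in siCtrl cells, and fell by 0.45 ± 0.14 (limma adjusted p = 0.0355). NFKBIB, the IkB beta gene, rose by 0.57 ± 0.15 (limma adjusted p = 0.011). The paired genes for the kappaB-Ras proteins, which bind IkB, parted: NKIRAS1 fell by 0.48 ± 0.14 (limma adjusted p = 0.024) and NKIRAS2 rose by 0.35 ± 0.11 (adjusted p = 0.043). The deubiquitinase gene CYLD fell by 0.45 ± 0.14 and N4BP1 by 0.53 ± 0.13 (limma adjusted p = 0.0343 and 0.00788). None of the 14 differed between siRelB and siRelA by limma. Each of these 6 calls was lost without at least 3 of the 4 arrays, and with 1 of the 4 left out 0 to 2 of the list fell and 0 or 1 rose. Those of NKIRAS1 and NKIRAS2 were lost without each of the 4 (adjusted p of up to 0.284 and 0.244). NFKBIA and CYLD were lost without the siCtrl EBSS, siRelB EBSS or siRelB mock array (up to 0.461 and 0.532), NFKBIB without the siCtrl mock, siRelB EBSS or siRelB mock array (up to 0.247), and N4BP1 without the siCtrl EBSS, siCtrl mock or siRelB mock array (up to 0.239). With no filter on dim genes the calls of NFKBIA, CYLD and NKIRAS2 were lost (adjusted p = 0.0602, 0.0631 and 0.061), and that of NFKBIA also under quantile normalization (0.0714) and with no intensity trend (0.0652).

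Canonical NF-kB target genes were mostly lower with siRelB. Of 34 listed genes 31 had a cluster of their own and 16 passed the filter. Of these 16, 9 fell (56.3%, against 8.55% of all tested genes) and 1 rose. The median difference was -0.44, against 0.003 over all tested genes. With siRelA, measured against the same siCtrl arrays, 9 of the 16 also fell and 1 rose, with a median of -0.44. Over all tested genes 11.4% fell and 10.1% rose with siRelA. Because 15 members were left out as dim, among them TNFAIP3, ICAM1, IL6, CXCL3 and CCL20, the count speaks only for the brighter members. CXCL8 encodes the chemokine interleukin 8. Its level was 8.93 and 8.46 in siRelB cells (EBSS, mock), against 9.89 and 9.43 in siCtrl cells, with both siRelB arrays below both siCtrl arrays. The difference was -0.97 ± 0.22 (n = 2 pairs, limma adjusted p = 0.0043), 1.96-fold lower. CXCL5, another neutrophil-attracting chemokine, lay at 8.27 and 8.93 in siRelB cells, against 9.21 and 9.73 in siCtrl cells (-0.87 ± 0.12, limma adjusted p = 6.96e-05). It was the target that fell further with siRelB than with siRelA (-0.38, adjusted p of the contrast 0.0134), and the other 15 tested targets showed no difference past the threshold between the 2 siRNAs. CD83, a surface protein of activated antigen-presenting cells, lay at 7.11 and 6.95 in siRelB cells, against 7.90 and 7.48 in siCtrl cells (-0.66 ± 0.14, limma adjusted p = 0.00271). PLAU, the urokinase gene, fell by 0.48 ± 0.10 (limma adjusted p = 0.00184), the cytokine gene LIF by 0.45 ± 0.14 (0.035) and the chemokine gene CXCL2 by 0.44 ± 0.15 (0.0435), beside IER3, NFKBIA and NFKB2 above. BCL2L1, which encodes the survival protein BCL-XL, was the member that rose, by 0.44 ± 0.12 (limma adjusted p = 0.0193). CXCL1 differed by 0.18 ± 0.18, CCL5 by 0.12 ± 0.14, SOD2 by -0.10 ± 0.12, TNFAIP2 by -0.34 ± 0.14, IRF1 by -0.33 ± 0.15 and NFKB1 as given above, none past the threshold. CXCL1, CXCL2 and CXCL3 are near-identical copies, so which of them a cluster measured is uncertain.

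The target calls depended on single arrays. CXCL5 was called whichever array was left out. CXCL8 was lost without the siCtrl EBSS or siRelB mock array (adjusted p = 0.134 and 0.163), PLAU without the siRelB mock array (0.083), and CD83 without the siCtrl EBSS or siRelB EBSS array (up to 0.104). CXCL2 was lost without the siCtrl EBSS, siRelB EBSS or siRelB mock array (up to 0.617) and LIF without any 1 of the 4 (up to 0.241), and both with no filter on dim genes (0.0814 and 0.0574). BCL2L1 was lost without the siCtrl mock, siRelB EBSS or siRelB mock array (up to 0.429). In counts, 2 targets fell without the siCtrl EBSS array, 3 without either siRelB array and 8 without the siCtrl mock array. Targets ascribed to the alternative pathway could hardly be read in these cells. Of 8 with a cluster 5 were dim, among them CXCL12, CXCL13, CCL19 and CCL21, and the other 3, MADCAM1, CCL17 and CCL22, differed by between -0.03 and 0.23 with 0 calls.

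**Figure D3:**
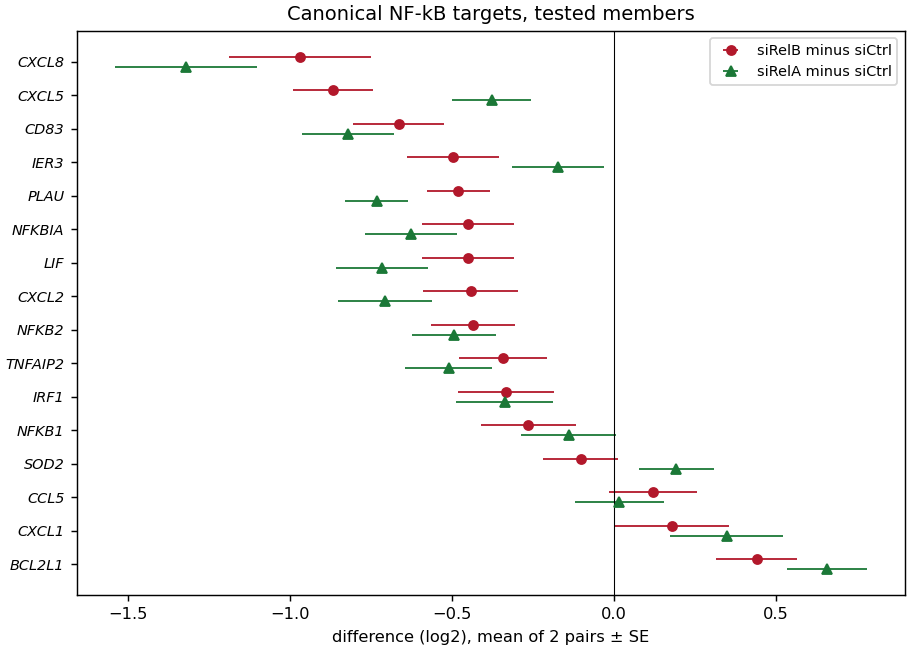
Difference (log2, horizontal axis, mean of 2 pairs ± SE) of the 16 tested canonical NF-kB targets, with siRelB minus siCtrl as red circles and siRelA minus siCtrl as green triangles. Both comparisons use the same siCtrl arrays. CXCL8 is lowest with either siRNA (-0.97 with siRelB and -1.32 with siRelA), and BCL2L1 is highest.

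Promoter sequences of 6 canonical targets are shown because they are the ones, of 13 with a promoter in the table, that hold the kappaB consensus, and because it stands before genes that fell and before genes that did not pass the threshold. The capitals mark the match to the kappaB consensus GGGRNWYYCC (R is A or G, N any base, W A or T, Y C or T). It was searched on both strands, and overlapping matches on the 2 strands are joined. Sites that depart from this pattern were not counted, so a promoter without a match may still hold a kappaB site. The bases are from RefSeq promoters of GRCh38.p14, on the gene's strand. CXCL2 is at chr4:74099243-74099293 (minus strand), CXCL5 at chr4:73998738-73998788 (minus strand), CXCL1 at chr4:73869294-73869344 (plus strand), NFKBIA at chr14:35404801-35404850 (minus strand), IRF1 at chr5:132490794-132490843 (minus strand) and NFKB1 at chr4:102501290-102501339 (plus strand), all upstream of the first exon.
CXCL2: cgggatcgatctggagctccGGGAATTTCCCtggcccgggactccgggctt
CXCL5: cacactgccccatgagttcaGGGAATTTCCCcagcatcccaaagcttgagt
CXCL1: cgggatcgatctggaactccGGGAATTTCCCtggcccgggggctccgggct
NFKBIA: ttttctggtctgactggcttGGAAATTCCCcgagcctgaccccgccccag
IRF1: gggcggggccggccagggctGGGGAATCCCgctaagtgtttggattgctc
NFKB1: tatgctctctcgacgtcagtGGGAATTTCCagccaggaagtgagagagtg
The matches begin 78, 91, 79, 81, 50 and 49 bases before the start site. CXCL2 (-0.44), CXCL5 (-0.87) and NFKBIA (-0.45) fell. CXCL1 (0.18), with the same 11 capitals as CXCL2 and CXCL5, IRF1 (-0.33) and NFKB1 (-0.26) did not pass the threshold. The consensus was thus in 3 of the 7 matched targets that fell and in 3 of the 6 that did not. The doubt given above on the CXCL1 and CXCL2 clusters applies here too. Promoters were matched for 8847 of the 11026 tested genes. Over these, the consensus was in 6.16% of the promoters of genes that fell (49 of 795), in 5.75% of those that rose (40 of 696) and in 6.97% of all (617 of 8847). A match is a description of the letters and not evidence of binding.

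Genes of survival and death were called in both directions. Of 9 tested anti-apoptotic genes 3 fell (33.3%, against 8.55% of all tested genes), namely BIRC2 and IER3 given above and CFLAR, which encodes the caspase 8 inhibitor FLIP (-0.45 ± 0.12, limma adjusted p = 0.0112), and BCL2L1 rose. Of 20 tested pro-apoptotic genes 1 rose and 2 fell, a share of calls just under the 16.1% of all tested genes. CASP9, the initiator caspase of the mitochondrial route, lay at 7.67 and 7.33 in siRelB cells, against 7.08 and 6.80 in siCtrl cells (0.56 ± 0.13, limma adjusted p = 0.00546). The death receptor gene FAS fell by 0.55 ± 0.14 (limma adjusted p = 0.00912) and DIABLO, whose product binds inhibitor of apoptosis proteins, by 0.49 ± 0.14 (0.0251). In the TNF receptor family 4 of 12 tested genes fell (33.3%) and 0 rose. TNFRSF9, the receptor 4-1BB, fell most. It lay at 7.17 and 7.03 in siRelB cells, against 8.17 and 7.93 in siCtrl cells, and all siRelB values were below all siCtrl values (-0.95 ± 0.15, limma adjusted p = 0.000182). It was lower still with siRelA (-2.12, adjusted p of the contrast 4.22e-05). TNFRSF10D, a decoy receptor of TRAIL, fell by 0.39 ± 0.12 (limma adjusted p = 0.0293), while with siRelA it differed by 0.25 (adjusted p of the contrast 0.00157). The calls of TNFRSF9 and BIRC2 were kept without any 1 array. Those of CFLAR, CASP9 and TNFRSF10D were lost without each of the 4 arrays in turn (adjusted p of up to 0.162, 0.0789 and 0.253), that of CFLAR also with the mean over its clusters (-0.28, adjusted p = 0.266), FAS without the siCtrl mock or either siRelB array (up to 0.15), and DIABLO without the siCtrl EBSS or either siRelB array (up to 0.451). With 1 of the 4 arrays left out, 1 or 2 anti-apoptotic genes, 0 or 1 pro-apoptotic genes and 1 to 3 genes of the TNF receptor family fell.

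Both chains of the LIF receptor were lower with siRelB. Of 15 tested interleukin and cytokine receptor genes 5 fell (33.3%, against 8.55% of all tested genes) and 1, IL1R1, rose. IL6ST, the shared signalling chain gp130, lay at 5.87 and 7.19 in siRelB cells, against 6.70 and 8.09 in siCtrl cells, lower within each medium (-0.87 ± 0.16, n = 2 pairs, limma adjusted p = 0.000774). It fell less than with siRelA (-1.62, adjusted p of the contrast 0.00397). LIFR, which pairs with it to bind LIF, fell by 0.56 ± 0.16 (limma adjusted p = 0.0197). IL13RA1, a receptor chain for interleukins 4 and 13, lay at 8.69 and 9.26 in siRelB cells, against 9.55 and 10.04 in siCtrl cells (-0.82 ± 0.12, limma adjusted p = 9.23e-05). It fell further than with siRelA (-0.17, adjusted p of the contrast 0.00145). Of 6 tested genes of the plasminogen system and matrix proteases 4 fell (66.7%), ADAM9 by 0.66 ± 0.12 and ADAM17, which sheds TNF, by 0.42 ± 0.11 (limma adjusted p = 0.000661 and 0.0143). The urokinase receptor gene PLAUR fell by 0.41 ± 0.11 (0.0158) beside PLAU. Another 10 members of that list were dim. IL6ST, IL13RA1 and ADAM9 were called without any 1 array. LIFR was lost without the siCtrl mock or siRelB mock array (adjusted p of up to 0.523), PLAU without the siRelB mock array (0.083), and ADAM17 and PLAUR without each of the 4 (up to 0.209 and 0.174). With 1 of the 4 arrays left out, 2 or 3 of the receptor genes and 1 or 2 of the protease genes fell.

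Genes of the G2 and M phases were mostly lower with siRelB. Of 26 tested genes 17 fell (65.4%) and 0 rose, and the median difference was -0.59, against 0.003 over all tested genes, of which 8.55% fell. With siRelA, measured against the same siCtrl arrays, 11 of the 26 fell and 0 rose. NUF2, a kinetochore protein that binds microtubules, lay at 6.39 and 8.14 in siRelB cells (EBSS, mock), against 8.27 and 9.43 in siCtrl cells, a difference of -1.59 ± 0.16 (n = 2 pairs, limma adjusted p = 2.33e-06). ECT2, the exchange factor that positions the cleavage furrow, lay at 7.46 and 8.73 in siRelB cells, against 9.05 and 10.29 in siCtrl cells (-1.58 ± 0.13, limma adjusted p = 1.84e-07). TTK, the spindle checkpoint kinase MPS1, lay at 5.08 and 6.77 in siRelB cells, against 6.98 and 7.89 in siCtrl cells (-1.51 ± 0.18, limma adjusted p = 1.67e-05). In these 3 genes both siRelB arrays were below both siCtrl arrays. HMMR, a hyaluronan receptor that also works at the spindle, lay at 4.73 and 5.98 in siRelB cells, against 5.82 and 7.79 in siCtrl cells (-1.45 ± 0.18, limma adjusted p = 2.66e-05), lower within each medium with groups that overlapped across media. These 4 calls were kept whichever array of the set was left out. The other 13 members that fell ranged from CDK1, the mitotic kinase (-1.11 ± 0.12), to CCNB1, its cyclin B1 partner (-0.36 ± 0.11).

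The list was not uniform, and PLK1 (-0.13 ± 0.13), AURKB (-0.07 ± 0.12) and CCNB2 (-0.19 ± 0.15) were among the 9 members that did not pass the limma threshold. Against siRelA, 4 members were lower with siRelB, namely ECT2, ANLN, KIF23 and BUB1, and 2 were higher, CDK1 and CCNB2. The contrast was -0.89 for ECT2 (limma adjusted p = 0.000185) and 0.67 for CCNB2 (0.0073). These members, like the ends of the range above, are named because of their values. Fewer members fell without single arrays, 10 without the siCtrl EBSS array and 11 without the siRelB EBSS array. The median difference was between -0.49 and -0.70 in those fits. In bulk RNA, fewer cells in a phase and less RNA per cell cannot be told apart.

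**Figure D4:**
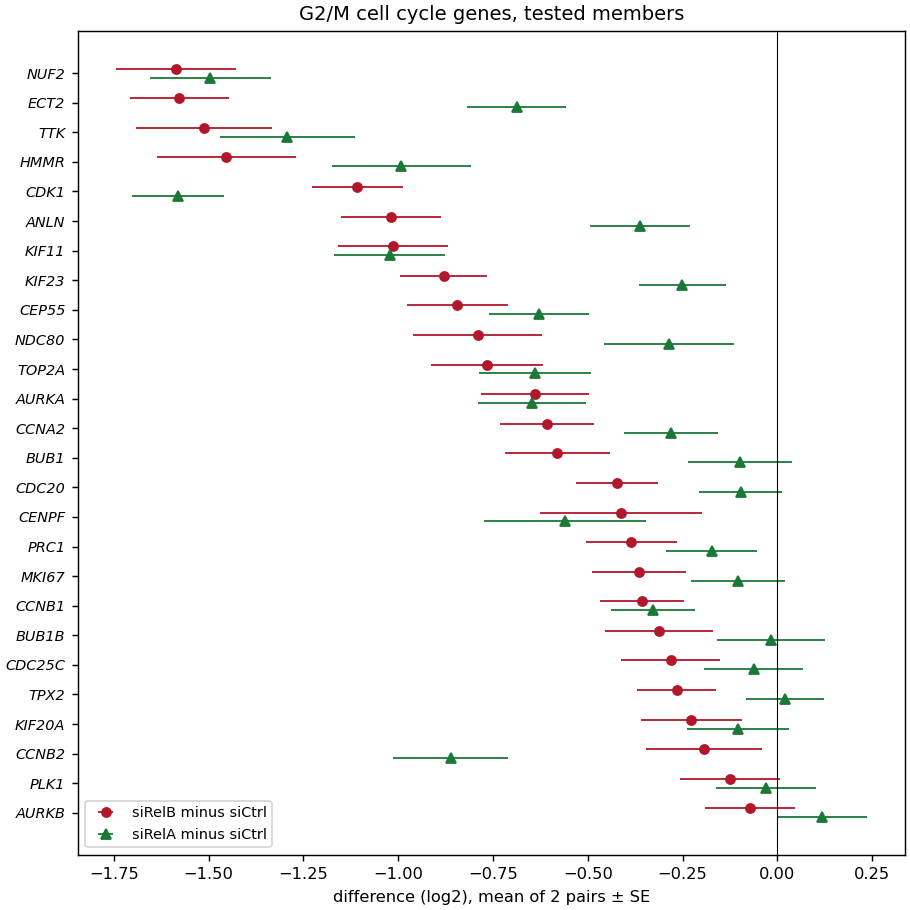
Difference (log2, horizontal axis, mean of 2 pairs ± SE) of the 26 tested G2/M genes, with siRelB minus siCtrl as red circles and siRelA minus siCtrl as green triangles, in the order of the siRelB difference. All red circles lie left of 0, from NUF2 (-1.59) to AURKB (-0.07), and the siCtrl arrays are shared by both comparisons.

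The promoters of 2 of these genes are shown because most promoters of the list hold the motifs marked in them. TTTGAA is the core of the cell cycle homology region, the element through which repressor and activator complexes act on mitotic genes, and CCAAT is the letters read by the factor NF-Y. Capitals mark both motifs, found on either strand within the 250 bases before the start site. The RefSeq bases of GRCh38.p14 are at chr3:172750596-172750687 (plus strand) for ECT2 and at chr5:163460440-163460630 (plus strand) for HMMR, upstream of the first exon. In HMMR, 2 CCAAT matches on opposite strands overlap.
ECT2: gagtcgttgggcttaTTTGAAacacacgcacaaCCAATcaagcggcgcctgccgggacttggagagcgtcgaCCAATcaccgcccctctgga
HMMR: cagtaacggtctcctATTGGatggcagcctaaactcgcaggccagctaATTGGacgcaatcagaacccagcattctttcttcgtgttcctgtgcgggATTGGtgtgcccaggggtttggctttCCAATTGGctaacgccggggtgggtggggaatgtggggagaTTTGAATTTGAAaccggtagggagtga
Over windows from 250 bases before to 50 after the start, 17 of the 23 G2/M genes with a promoter in the table held TTTGAA. Of the 23, 18 held CCAAT and 0 held the kappaB consensus. Within the list, TTTGAA was in 12 of the 15 members that fell and in 5 of the 8 that did not. For CCAAT these were 12 of the 15 and 6 of the 8. TTTGAA was in 14.97% of the promoters of genes that fell (119 of 795), in 6.61% of those that rose and in 8.87% of all 8847. CCAAT was in 42.1% of the promoters of genes that fell, in 34.5% of those that rose and in 35.9% of all. The median GC content of those windows was 65.0% for genes that fell, 66.7% for genes that rose and 66.0% for all, and its part in the motif shares was not tested.

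Of 28 tested DNA replication and G1/S genes 3 fell (10.7%, near the 8.55% of all tested genes) and 0 rose, and the median was 0.00. MCM10, an origin factor, fell by 0.47 ± 0.14, POLA1, a subunit of the priming polymerase, by 0.45 ± 0.12 and MCM7, a subunit of the replicative helicase, by 0.40 ± 0.10 (limma adjusted p = 0.0243, 0.0115 and 0.0112). Among G1 regulators 2 of 16 tested genes rose and 1 fell, 18.8% in all, near the 16.1% of all tested genes. The members called are given for their own values. CCND1, the cyclin D1 gene, lay at 8.82 and 8.82 in siRelB cells, against 9.41 and 9.68 in siCtrl cells, and all siRelB values were below all siCtrl values (-0.73 ± 0.11, limma adjusted p = 0.000174). With siRelA it differed from siCtrl by 0.05, and the contrast of the 2 siRNAs passed (adjusted p = 0.000148). CDK6, a kinase partner of cyclin D1, rose within each medium, with 6.73 and 8.02 in siRelB cells, against 6.30 and 7.21 in siCtrl cells (0.62 ± 0.13, limma adjusted p = 0.00236). It too differed from siRelA (0.01, adjusted p of the contrast 0.00415). The CCND1 call was kept without any 1 array. The CDK6 call was lost without either mock array of the 4 (adjusted p of up to 0.119), that of MCM7 without either EBSS array of the 4 (up to 0.277), and those of MCM10 and POLA1 without each of the 4 (up to 0.184 and 0.148).

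The 2 largest falls of all tested genes were in small GTPase genes. RAB21, a small GTPase of early endosomes that carries integrins, lay at 6.39 and 6.93 in siRelB cells (EBSS, mock), against 8.68 and 8.87 in siCtrl cells. The difference of -2.11 ± 0.13 (n = 2 pairs, limma adjusted p = 2.29e-09), 4.32-fold lower, was wider than that of RELB itself. RAP1B, a small GTPase of integrin activation, lay at 7.66 and 7.83 in siRelB cells, against 9.66 and 9.64 in siCtrl cells (-1.91 ± 0.11, limma adjusted p = 2.29e-09). YAE1 lay at 5.31 and 6.17 in siRelB cells, against 7.31 and 7.68 in siCtrl cells (-1.76 ± 0.14, limma adjusted p = 1.04e-07). All 3 had siRelB arrays below both siCtrl arrays, as did 460 of the 943 genes that fell. Beside BIRC2 and the 4 mitotic genes above, the falls included SMC2, a condensin subunit (-1.60), GMFB (-1.55), and DCUN1D1, which promotes neddylation (-1.44). SERPINB8, a serine protease inhibitor (-1.42), GAS2L3, a cytoskeletal linker of cell division (-1.40), KRR1, a factor of small ribosomal subunit assembly (-1.38), and CHORDC1, a partner of HSP90 (-1.36), complete the 15, with SE between 0.11 and 0.25. Of these 15 falls, all were called whichever array of the NF-kB set was left out, with SMC2 the weakest (adjusted p of up to 0.0182). The 15 were picked by the size of their fall on these arrays, which favours keeping the call. SMC2 was dim in EBSS, at 3.63 in siRelB cells and 5.22 in siCtrl cells. HMMR, TTK and YAE1 were also under the filter level of 5.80 in siRelB cells in EBSS.

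The largest rises were of 1.06 to 1.60 on the log2 scale. GANAB, the catalytic chain of glucosidase II in the endoplasmic reticulum, lay at 10.76 and 10.65 in siRelB cells, against 9.13 and 9.09 in siCtrl cells (1.60 ± 0.10, n = 2 pairs, limma adjusted p = 4.07e-09), 3.03-fold higher. NOLC1, a nucleolar phosphoprotein, lay at 9.74 and 10.23 in siRelB cells, against 8.18 and 8.76 in siCtrl cells (1.52 ± 0.11, limma adjusted p = 1.84e-08). Both were also higher with siRelA (1.30 and 2.01), NOLC1 more so than with siRelB (adjusted p of the contrast 0.00465). TSPAN1, a tetraspanin, lay at 9.99 and 10.09 in siRelB cells, against 8.99 and 8.95 in siCtrl cells (1.07 ± 0.13, limma adjusted p = 1.78e-05), and of the 15 it was the one that stood above siRelA by the contrast (0.31 with siRelA, adjusted p of the contrast 0.000675). The other 12 were OGFR (1.34), ZDHHC16, a palmitoyltransferase (1.28), TOMM22, a mitochondrial import receptor (1.27), MICAL2, an actin-oxidizing enzyme (1.26), CSTPP1 (1.11), COL6A3, a collagen VI chain (1.11), STX12, an endosomal fusion protein (1.10), OSBPL5 (1.08), GLE1, an mRNA export factor (1.08), PFKL, a phosphofructokinase (1.07), DNAAF9 (1.07) and ZW10, a kinetochore and Golgi protein (1.06), with SE between 0.11 and 0.17. In all 15 both siRelB arrays were above both siCtrl arrays, as in 713 of the 836 genes that rose. Over all tested genes, 29.3% did not overlap in 1 direction or the other. The 15 were picked by the size of their rise on these arrays, which favours such a gap. With any 1 array left out the smallest rise among them was 0.85 (PFKL).

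The most similar comparison in the study is RELA silencing in the same media, in which 1116 genes rose (10.1%) and 1255 fell (11.4%) against the same 2 siCtrl arrays. Shared controls make the 2 lists of calls resemble each other, so the siRNAs were compared directly by a contrast in which siCtrl cancels. By it 602 genes were higher (5.46%) and 508 lower (4.61%) with siRelB than with siRelA. Of the 943 genes that fell with siRelB 221 were lower than with siRelA and 49 were higher. Of the 836 that rose 109 were higher and 9 were lower. These genes were picked on the same siRelB arrays that enter the contrast. That choice by itself tilts both counts, so the tilt is not a result about the genes. Without the siRelB mock array the contrast called 313 genes, without the siRelA mock array 357, without the siRelB EBSS array 442 and without the siRelA EBSS array 646. DDAH1, which breaks down a natural inhibitor of nitric oxide synthesis, lay at 7.66 and 7.69 in siRelB cells, against 8.74 and 8.97 in siCtrl cells (-1.19 ± 0.13, limma adjusted p = 9.95e-06). With siRelA it was at 9.28 and 9.94, so the siRNAs parted from siCtrl in opposite directions (contrast -1.94, limma adjusted p = 3.74e-08). IDH3A, a subunit of the mitochondrial isocitrate dehydrogenase, lay at 7.48 and 8.21 in siRelB cells, 8.96 and 9.76 in siRelA cells and 8.47 and 9.60 in siCtrl cells (contrast -1.52, limma adjusted p = 7.66e-07). RAB22A, another endosomal GTPase, lay at 7.44 and 7.31 in siRelB cells, 8.67 and 8.68 in siRelA cells and 8.71 and 8.58 in siCtrl cells (contrast -1.30, limma adjusted p = 4.4e-06). KCTD20 (-0.99 with siRelB and 0.46 with siRelA), RBM24, an RNA-binding protein (-1.08 and 0.41), and ATP8B1, a phospholipid flippase (-0.71 and 0.58), followed the same order, and RAB21 (-2.11 and -0.50) and RAP1B (-1.91 and -0.66) completed the 8 lowest. RBM24 was called against siCtrl with every array but the siRelB mock array (adjusted p = 0.128 without it), and the others of these 8 in every fit that left out 1 array.

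Among the genes that stood above siRelA, 2 kinds could be seen in the values. CA11, a carbonic anhydrase-related protein, was raised by siRelB, with 8.56 and 8.60 in siRelB cells, 7.77 and 7.40 in siRelA cells and 7.65 and 7.40 in siCtrl cells (1.05 ± 0.13 against siCtrl, limma adjusted p = 2.86e-05; contrast 0.99, adjusted p = 7.88e-05). WDR54 was higher with siRelB (0.63) and lower with siRelA (-0.74), with a contrast of 1.37 (limma adjusted p = 4.42e-06), and SNORD8, a small nucleolar RNA encoded inside another gene, did likewise (0.52 and -0.52). LSM14A, a protein of processing bodies, was lower with both siRNAs, by -0.51 with siRelB and -1.57 with siRelA. TFAM, the packaging protein of mitochondrial DNA (-0.45 and -1.48), RNF141 (-0.80 and -1.81), ITGB3BP, a centromere protein (-0.71 and -1.69), and TNFRSF9 were of the same kind. The calls against siCtrl of CA11 and TNFRSF9 were kept without any 1 array. LSM14A was lost without the siCtrl mock array and RNF141 without the siRelB EBSS array (adjusted p = 0.0656 and 0.0548). WDR54 was lost without the siCtrl EBSS or either siRelB array (up to 0.0684), ITGB3BP without the siCtrl mock or either siRelB array (up to 0.263), SNORD8 without each of the 4 (up to 0.289) and with no filter on dim genes (0.0626), and TFAM without any 1 of the 6 arrays (up to 0.445), with no filter on dim genes (0.0785), under quantile normalization (0.0756) and with no intensity trend (0.0628).

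In the ATF4 and amino acid response 7 of 31 tested genes fell (22.6%, against 8.55% of all tested genes) and 1 rose (3.23%, against 7.58%), with a median of -0.14. The count of falls moved with every one of the 4 arrays, to 2 without the siCtrl EBSS or siRelB EBSS array, 3 without the siRelB mock array and 10 without the siCtrl mock array. PSAT1, an enzyme of serine synthesis, lay at 9.04 and 9.08 in siRelB cells, against 9.95 and 9.84 in siCtrl cells (-0.84 ± 0.12, limma adjusted p = 0.000111), and the groups did not overlap. DDIT4, which restrains mTORC1, lay at 8.59 and 7.96 in siRelB cells, against 9.83 and 8.29 in siCtrl cells (-0.79 ± 0.18, limma adjusted p = 0.00504). The EBSS pair gave -1.25 and the mock pair -0.33. CHAC1, which degrades glutathione, fell by 0.71 ± 0.19 (limma adjusted p = 0.0127) with the same tilt, -1.05 in EBSS and -0.37 in mock. XPOT, the tRNA export receptor, fell by 0.67 ± 0.11 (limma adjusted p = 0.000405). Against the same siCtrl arrays, 11 of the 31 fell with siRelA and 0 rose. By the contrast 4 members were higher with siRelB than with siRelA and 0 were lower. The sign of the list's median rested on single arrays, with 0.07 without the siCtrl EBSS array and -0.38 without the siCtrl mock array. The calls of PSAT1 and XPOT were kept without any 1 array. DDIT4 was lost without either EBSS array of the 4 (adjusted p of up to 0.389) and CHAC1 without the siCtrl EBSS or either siRelB array (up to 0.559). Of 13 heat shock proteins 5 fell (38.5%) and 0 rose, HSPA4L by 0.85 ± 0.16 (limma adjusted p = 0.00117) and HSPH1 by 0.45 ± 0.12 (0.014), and 1 or 2 of the list fell without any 1 of the 4 arrays, as did 2 with no filter on dim genes or no intensity trend. HSPA4L was kept without any 1 array, and HSPH1 was lost without the siCtrl EBSS, siCtrl mock or siRelB mock array (up to 0.227). Among aminoacyl-tRNA synthetases EPRS1 (-0.91 ± 0.14, limma adjusted p = 0.000189), TARS1 (-0.64 ± 0.11, 0.000327) and FARSB fell and HARS1 rose (0.60 ± 0.11, 0.0007), 4 of 19 (21.1%, against 16.1% of all tested genes). FARSB (-0.29 ± 0.10, adjusted p = 0.0475) was lost without each of the 4 arrays (up to 0.33), under quantile normalization, with no filter on dim genes, with no intensity trend and in the NF-kB set alone (0.0678 to 0.107), and HARS1 without the siCtrl EBSS array (0.0569).

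Several genes of the cell surface and of junctions were called. ITGB1, the integrin beta 1 chain, lay at 9.30 and 9.86 in siRelB cells, against 10.13 and 10.77 in siCtrl cells (-0.88 ± 0.10, limma adjusted p = 1.75e-05). It was lower than with siRelA (-0.26, adjusted p of the contrast 0.000725). CLDN1, a tight junction protein, lay at 7.61 and 7.41 in siRelB cells, against 8.59 and 8.27 in siCtrl cells (-0.92 ± 0.15, limma adjusted p = 0.00027). JUP, the desmosomal plakoglobin, went the other way with 7.92 and 7.53 in siRelB cells, against 7.27 and 6.60 in siCtrl cells (0.79 ± 0.12, limma adjusted p = 0.000189). In each of these 3 genes the groups did not overlap. The receptor tyrosine kinase gene ERBB2 rose by 0.67 ± 0.12 and SPRED2, which restrains ERK signalling, fell by 0.71 ± 0.12 (limma adjusted p = 0.000807 and 0.000441). Collagens, laminins and integrins as a list had 1 rise and 1 fall among 17 tested genes (11.8%, against 16.1% of all tested genes), and keratins and junction genes 3 rises and 2 falls among 13 (38.5%, and 2 or 3 calls with 1 of the 4 arrays left out). ZEB1, a repressor of epithelial genes, fell by 0.67 ± 0.13 (limma adjusted p = 0.00128). The genes named in this paragraph were called whichever array of the NF-kB set was left out, with ZEB1 the weakest (adjusted p of up to 0.047).

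Single genes of metabolism and RNA processing were called, in lists whose shares are given against the 16.1% of all tested genes. ME1, a malic enzyme that supplies NADPH and an NRF2 target, rose, with 8.37 and 8.78 in siRelB cells, against 7.32 and 7.88 in siCtrl cells (0.97 ± 0.12, limma adjusted p = 1.9e-05). Of 15 fatty acid genes 2 rose and 3 fell (33.3% called), with ACACA, the rate-limiting enzyme of fatty acid synthesis, at 0.56 ± 0.11 (limma adjusted p = 0.00118) and HADHA, an enzyme of mitochondrial beta oxidation, at -0.51 ± 0.09 (0.000638). Both differed from siRelA in the same direction (contrasts 0.57 and -0.44, limma adjusted p = 0.00178 and 0.00359). Of 14 cholesterol genes 3 rose and 2 fell (35.7% called). With 1 of the 4 arrays left out, 2 to 4 fatty acid genes and 2 or 3 cholesterol genes were called. DROSHA and DICER1, the enzymes that cut microRNA precursors, differed in sign (0.68 ± 0.12 and -0.67 ± 0.14, limma adjusted p = 0.000585 and 0.00323), and TNRC6A, a partner of Argonaute, fell by 0.71 ± 0.14 (0.00164). The last differed from siRelA, where it was at 0.33 (contrast -1.04, limma adjusted p = 8.58e-05). The 4 Argonaute genes did not pass the threshold. At or below the share of all tested genes lay the interferon-stimulated genes, with 2 rises in 19 (10.5%), the autophagy and lysosome genes, with 3 rises and 2 falls in 32 (15.6%), and the cytosolic ribosomal proteins, with 2 falls in 16 (12.5%). The 2 interferon-stimulated genes were IFI35 and MX2 (both 0.70, limma adjusted p = 0.0014 and 0.000991). Ribosome biogenesis had 3 rises and 3 falls in 21 (28.6%), and p53 targets 3 and 4 in 19 (36.8%). With 1 of the 4 arrays left out, the calls in the 2 lists were 2 to 6 and 1 to 4. Oxidative phosphorylation genes had 0 calls in 17 by limma, and lay between -0.27 and 0.14. The calls of ME1, HADHA, DROSHA and MX2 were kept without any 1 array. ACACA was lost without the siRelB EBSS array (adjusted p = 0.0559), TNRC6A without the siCtrl EBSS or siRelB mock array (up to 0.072), and DICER1 and IFI35 without either mock array of the 4 (up to 0.155 and 0.14).

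**Figure D5:**
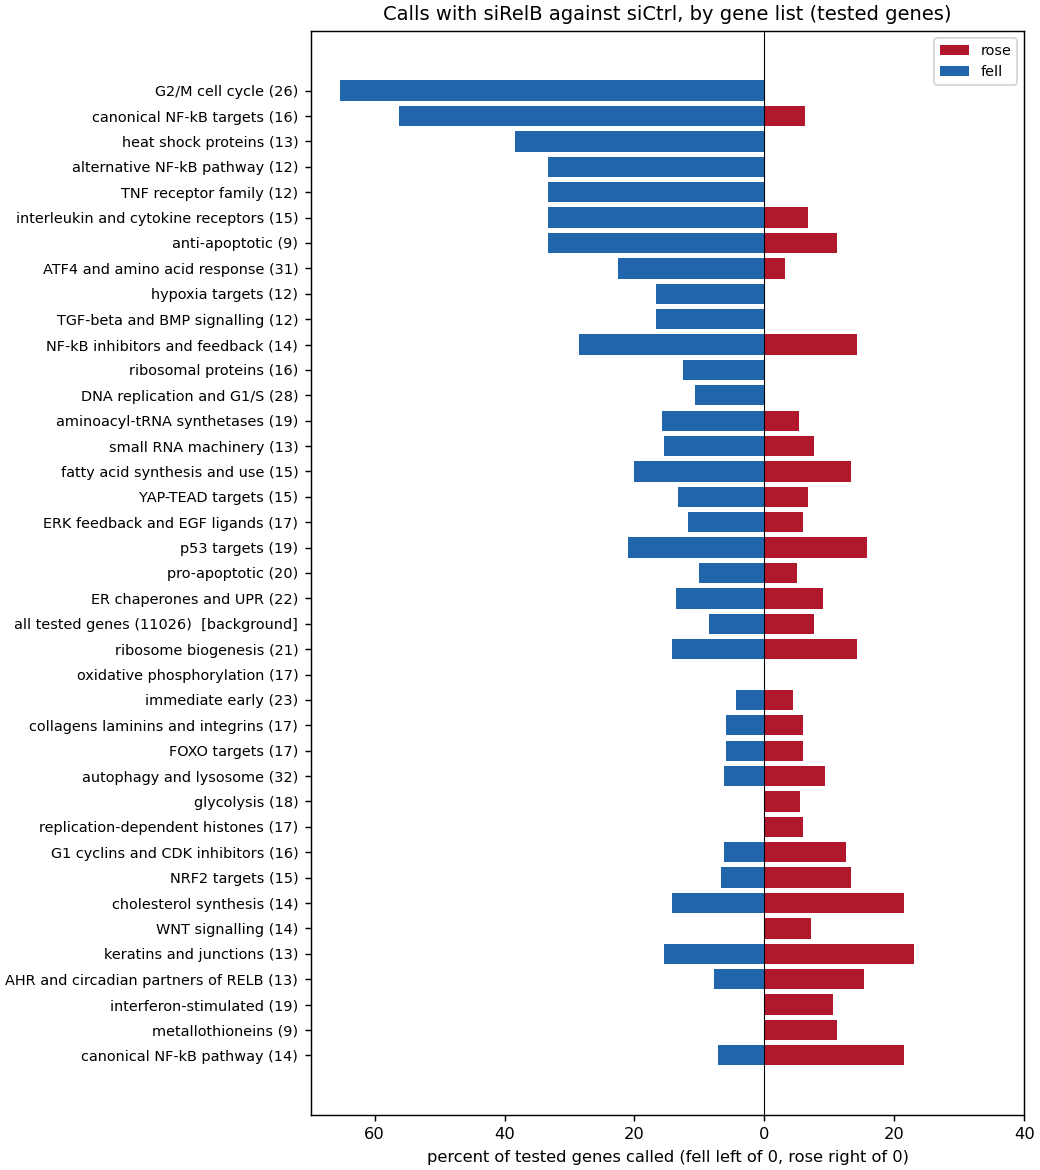
Percent of the tested genes of each list that rose (red, right of 0) or fell (blue, left of 0) with siRelB against siCtrl, for lists with at least 9 tested genes, with the number of tested genes in brackets and all 11026 tested genes as background. The G2/M genes (17 of 26) and the canonical NF-kB targets (9 of 16) have the longest blue bars.

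NUPR1 silencing was measured in the other 8 arrays of the study, against siCtrl arrays that the RELB comparison does not use, so the values can be set beside each other without shared controls. In that comparison (4 pairs, at 0, 3, 6 and 9 h) 1087 genes rose (9.86%) and 946 fell (8.58%). Of the 836 genes that rose with siRelB 266 also rose with siNupr1 (31.8%) and 19 fell, and of the 943 that fell 304 also fell (32.2%) and 20 rose. Across all tested genes the differences correlated at 0.427 (Pearson) and 0.386 (Spearman), a description over genes that are not independent. GANAB, ZDHHC16 and NOLC1 are examples from the largest siRelB rises, and the siNupr1 values of the other large rises are not given. With siNupr1, GANAB was at 0.81, ZDHHC16 at 0.79 and NOLC1 at 0.56 (all past the limma threshold). RAB21 (-0.05) and RAP1B (-0.16), the genes that siRelB lowered most, did not pass it there. TNFRSF9 (-1.17), CXCL8 (-0.95), CLDN1 (-0.76) and BIRC2 (-0.61) fell there too, IER3 was at -0.21 (limma adjusted p = 0.16), and NUF2 was at -0.76. These values carry a doubt, since the title of 1 of the 4 siNupr1 arrays (9 h) disagrees with its other labels on the siRNA.

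Whether the siRelB difference depended on the medium was tested as the EBSS difference minus the mock difference in a fit with that term, whose spread came from the other 8 arrays. It called 0 genes by limma, with 401 at an unadjusted p under 0.05 (3.64%) and a smallest adjusted p of 0.703. The absence of calls does not show that the difference was the same in both media. The 3 genes with the smallest p were ID2, ZNF12 and SLU7. SLU7, a splicing factor, lay at 6.10 and 7.11 in siRelB cells, against 7.42 and 7.25 in siCtrl cells, with -1.32 in EBSS and -0.14 in mock. For RELB itself the gap was -0.73 ± 0.32, which did not pass the threshold after adjustment.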

How the data were processed

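Per the labels, 14 arrays were hybridized with MiaPaCa2 RNA after whole-transcript cDNA labelling. The authors deposited log2 values from RMA, a method that corrects background, normalizes by quantiles and summarizes each cluster's probes, per the submitters' processing notes, which also name limma. No version of RMA and no annotation is named in the sources used here. They were used as deposited. Of 28869 transcript clusters, 19310 carried 1 gene symbol in the array annotation (1752 carried several and 7807 were not listed), and an Entrez identifier gave the current symbol for 19279 of them, 18377 genes in all. For 685 genes with several clusters the brightest was used. The dimmest 40% of genes were left out (a mean level under 5.80), so 11026 were tested.

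The fit was made in R 4.3.3 with limma 3.58.1 and data.table (version 1.17.8): set, medium, time and siRNA as additive terms (9 columns, 5 residual degrees of freedom, 19.6 in total after moderation), eBayes with an intensity trend and Benjamini-Hochberg adjustment. The medium term pairs the arrays. A second fit added the dependence of the siRelA and siRelB differences on medium, and siRelB against siRelA was a contrast of the first. The number of arrays limits the precision. On simulated data for siRelB against siCtrl (11026 genes), 7.46% of 1.25-fold, 71.6% of 1.5-fold and 100% of 2-fold changes were recovered. There were 5 false calls and 0 of the wrong sign. Only 67, 67 and 66 genes were changed there, with independent noise, against 1779 called in the data. The adjustment is stricter where fewer genes change, so these shares need not hold for the data.

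The comparison, the 47 gene lists and their members were chosen with earlier results of these data known. Lists are described by their counts and medians and were given no test of their own. Named genes are the NF-kB subunits, NUPR1 and IER3; the 15 largest rises and 15 largest falls past the threshold; for each list the called members with the largest change, at most 4, and all called members of the NF-kB lists; up to 8 genes each way with the largest difference between siRelB and siRelA among genes called in both; and, as no gene passed for the dependence on medium, the 3 with the smallest p. Other genes named were chosen after their values were seen. Alternatives were quantile normalization, other filters on dim genes, the mean over a gene's clusters, each cluster on its own, removal of a trend with genomic span, no intensity trend, the NF-kB set or the 4 arrays alone, no medium term, and leaving out each array of the set. Promoters came from RefSeq (GRCh38.p14), matched by gene identifier for 8847 tested genes; no genome build is named for the clusters. List members without a cluster of their own were not analysed here.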

Additional observations from a re-analysis of the deposited data

Results flagged for a closer look

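Of the genes named by rule, 2 had siRelB differences of opposite sign in EBSS and in mock. They were named because they had the smallest unadjusted p of the test of that dependence. Opposite signs were common otherwise, since 69.4% of all tested genes had the same sign in both pairs. ID2, an inhibitor of helix-loop-helix transcription factors, lay at 5.83 in EBSS and 6.15 in mock in siRelB cells, against 5.54 and 7.29 in siCtrl cells. Its difference was 0.30 in EBSS and -1.14 in mock, a gap of 1.43 ± 0.28 (limma adjusted p = 0.703). ZNF12, a zinc finger protein, lay at 6.32 and 7.71 in siRelB cells, against 6.78 and 6.96 in siCtrl cells, with a gap of -1.21 ± 0.26 (limma adjusted p = 0.726). Neither passed the threshold, and each value rests on 1 array per combination.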

How the results depend on the processing

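The number of genes called for siRelB against siCtrl was 1779 as reported and lay between 1534 and 2462 under quantile normalization, other filters on dim genes, no intensity trend, the mean over clusters, each cluster on its own, removal of the span trend, the NF-kB set alone and the 4 arrays alone. Quantile normalization called 1946, of which 994 rose and 952 fell. Leaving out the medium term, which gives up the pairing and counts the difference between media as noise, called 63 (41 rose and 22 fell). With 1 array of the set left out the count lay between 761 and 1791. For siRelB against siRelA it was 1110 as reported, between 909 and 1266 under the other alternatives, and between 313 and 1072 with 1 array left out. The test of dependence on medium gave 0 calls wherever it could be fitted. It could not be fitted in the NF-kB set alone, where no residual degrees of freedom are left, or without a siRelB or siCtrl array of that set. Of 158 named genes past the threshold, 63 kept their call in every fit that left out 1 array, 17 in all 15 alternatives and YAE1 in the 14 in which it was tested, and 0 changed direction. Most of the others lost it without the medium term or without 1 of the 4 arrays. In the latter fits 1 complete pair is left, and the siRelA arrays help to set the medium difference. The reported fit is paired by medium. Every group holds 1 array, so there are no replicate numbers to block on. Most changes of 1.25-fold were missed in the simulation, in which few genes changed.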

Other observations

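SPRED1, which like SPRED2 restrains ERK signalling, was lower with siRelB, at 6.69 and 6.76 in siRelB cells (EBSS, mock), against 7.20 and 7.44 in siCtrl cells (-0.60 ± 0.13, limma adjusted p = 0.00347). It was also lower than with siRelA (adjusted p of the contrast 0.00103). JUNB, an AP-1 subunit, fell by 0.67 ± 0.15 (limma adjusted p = 0.00463) and NUAK2, a kinase of actomyosin control, by 0.61 ± 0.14 (0.0045). TGFBR1, the kinase receptor of TGF-beta, fell by 0.55 ± 0.15 (limma adjusted p = 0.0136). MDM2, the ubiquitin ligase of p53, fell by 0.67 ± 0.13 (limma adjusted p = 0.00116) and TIGAR, which limits glycolysis, by 0.62 ± 0.14 (0.00376). SESN1 and XPC rose by 0.59 ± 0.16 and 0.56 ± 0.13 (0.0127 and 0.00462). All 4 are p53 target genes, a list in which 4 of 19 tested members fell, 3 rose and the median was -0.17. PER3 and CRY1 are circadian genes of a list on AHR and the clock, in which 2 of 13 tested genes rose and 1 fell. That is 23.1% called, against 16.1% of all tested genes. PER3 rose by 0.69 ± 0.13 (limma adjusted p = 0.00113), and CRY1 fell by 0.39 ± 0.13 (0.0386, and 0.0657 with no filter on dim genes). Of these genes PER3 kept its call without any 1 array, and each of the others lost it without at least 1 of the 4 arrays of the comparison, with adjusted p of up to 0.137 for SPRED1, 0.0728 for JUNB, 0.126 for NUAK2, 0.253 for TGFBR1, 0.0937 for MDM2, 0.203 for TIGAR, 0.248 for SESN1, 0.098 for XPC and 0.489 for CRY1.

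Genes that changed spanned more of the genome than the tested genes as a whole. The median genomic span was 33.2 kb for genes that rose, 42.9 kb for genes that fell and 24.7 kb for all tested genes. Across 11017 genes with a span, the rank correlation of span with the siRelB difference was -0.02, -0.005 in EBSS and -0.04 in mock, a description over genes that are not independent. After removal of that trend 1805 genes were called.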
